A study of Mus musculus with 9 samples.

Results

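The 10 neighbours of Kpna6 on mouse chromosome 4 described here were followed across the testes of 3 genotypes. The 10 genes (Hpca, Yars, Zbtb8os, Zbtb8b, Hdac1, Dcdc2b, Tmem39b, Col16a1, Snrnp40 and Ptpru) lie within chr4:129111570-131838288 (GRCm38) and were picked, out of 32035 genes, because their counts differed between Kpna6-/- and wild-type (WT) testes. All values of that comparison are therefore a description of how the genes were picked and carry no test here. Bulk poly(A) RNA-seq was made of whole testes from male mice aged 15 weeks, with 3 libraries per genotype. The WT, Kpna6 ΔIBB/ΔIBB and Kpna6-/- mice were all on the C57Bl6/N strain, to which both mutant lines had been backcrossed. In Kpna6 ΔIBB/ΔIBB mice a neomycin resistance cassette takes the place of exon 2 in every cell, and the remaining mRNA encodes a shortened protein without the importin β binding domain. In Kpna6-/- mice a gene trap sits in intron 1, but a testis-specific first exon downstream of it keeps full-length protein in germ cells, so that Sertoli cells, and not germ cells, lack the protein. The labels do not say whether the 3 libraries of a genotype came from separate animals, and p-values then measure only the spread between these libraries.

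Kpna6 encodes importin α7, an adaptor that binds nuclear localisation signals on cargo proteins and hands them to importin β for transport into the nucleus. The 10 neighbours have unrelated roles. They include a calcium sensor (Hpca), a tyrosyl-tRNA synthetase (Yars), the archease subunit of the tRNA ligase complex (Zbtb8os), a histone deacetylase (Hdac1), a BTB zinc finger protein (Zbtb8b), a doublecortin-domain protein (Dcdc2b), a multi-pass membrane protein (Tmem39b), a fibril-associated collagen (Col16a1), a U5 small nuclear ribonucleoprotein (Snrnp40) and a receptor tyrosine phosphatase (Ptpru). Neighbouring genes can share promoters, as when a pair of genes starts back to back on opposite strands, and a processed copy of an mRNA can sit elsewhere in the genome and compete for its reads. Both situations occur among these genes.

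Between 24859751 and 31484692 estimated counts per library fell on genes. Kpna6 itself stood at 201.2, 324.6 and 333.6 counts scaled to library size (CPM) in WT replicates 1 to 3, at 81.2, 85.3 and 81.8 in Kpna6 ΔIBB/ΔIBB and at 247.1, 248.8 and 261.9 in Kpna6-/-. WT replicate 1 therefore lay apart from the other WT libraries, below every Kpna6-/- library. The transcript that starts at the gene's upstream exon, Kpna6-202, was at 16.9 to 23.4 length-scaled transcript abundance (TPM) in WT, at 14.5 to 15.3 in Kpna6 ΔIBB/ΔIBB and at 11.3 to 12.0 in Kpna6-/-. It has 3504 bases but no junction of its own, so that its level does not measure the use of that exon. By contrast, Kpna6-201, which starts inside the gene, was at 75.4 to 148.2 in WT, 119.2 to 126.3 in Kpna6-/- and 11.7 to 14.9 in Kpna6 ΔIBB/ΔIBB. The tissue label held in that all 5 haploid elongating spermatid markers were detected, with a summed level of 62305 to 72432 TPM in WT. All 8 Sertoli cell markers were called higher in Kpna6 ΔIBB/ΔIBB (summed 928.5 to 1090.5 TPM against 560.1 to 597.8 in WT), all 5 round spermatid and all 5 elongating spermatid markers were called lower, and the 5 epididymal markers summed to 3.54 to 165.2 TPM against 1.05 to 3.11 in WT, with Lcn5 at 0 in every library. Sertoli cells were not alone: all 4 peritubular myoid markers were called higher too (86.3 to 94.0 TPM against 53.4 to 58.0 in WT). Of 4 macrophage markers 2 were called higher, and of 5 spermatogonial markers 2 were higher and 1 lower. Of all tested genes 17.7% were called higher and 18.9% lower in Kpna6 ΔIBB/ΔIBB. In Kpna6-/- the Sertoli markers summed to 673.6 to 692.3 TPM, and 2 of 8 were called higher, as were 0.889% of all tested genes. The epididymal markers summed to 3.54 to 15.4 TPM in Kpna6-/-, also above WT. Only 2 of them were tested in Kpna6 ΔIBB/ΔIBB, both called higher, and 1 in Kpna6-/-, which was not called. The part of these shifts in the values of the 10 genes was not tested, and in bulk tissue fewer cells of a type cannot be told apart from less RNA per cell.

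The sequences that set these genes apart from their partners and copies are given first. Yars and S100pbp start back to back on opposite strands, and their start positions are 33 bases apart. The stretch at chr4:129189718-129189769 (plus strand, RefSeq GRCm38.p6) is shown because Yars differed between the genotypes and S100pbp was not called by edgeR in either line. Capitals mark the bases between the starts, with the start of S100pbp on the left and that of Yars on the right:
S100pbp and Yars: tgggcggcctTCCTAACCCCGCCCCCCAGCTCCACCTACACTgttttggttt

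Hdac1 has a single-exon copy on chromosome 17, Gm10093, whose 1444 bases differ from the Hdac1 mRNA at 9 positions, all 9 inside the Hdac1 coding sequence (99.4% identity). The stretch of 61 bases with 5 of these 9 differences is shown because reads from the rest of the 1444 bases match both genes where they cover none of the 9 positions. Capitals mark the bases that differ. The Hdac1 stretch spans an intron at chr4:129522504-129523022 (minus strand), and the Gm10093 stretch is at chr17:78492016-78492076 (plus strand), both from GENCODE M21 transcripts on GRCm38:
Hdac1: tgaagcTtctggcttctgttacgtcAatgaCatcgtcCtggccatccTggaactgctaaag
Gm10093: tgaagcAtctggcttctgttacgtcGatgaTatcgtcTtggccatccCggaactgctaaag

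Snrnp40 has a coding transcript, Snrnp40-201, and a non-coding one, Snrnp40-202, which share their first exons and then part. In the lines below lower case is the end of the last shared exon and capitals are the next exon, which begins the last 2 exons of Snrnp40-202 (chr4:130373342-130375576, plus strand) or continues the coding sequence of Snrnp40-201. They are shown because these transcripts differed in how far they fell short of WT in Kpna6-/-:
Snrnp40-202: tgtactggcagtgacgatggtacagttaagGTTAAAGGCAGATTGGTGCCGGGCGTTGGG
Snrnp40-201: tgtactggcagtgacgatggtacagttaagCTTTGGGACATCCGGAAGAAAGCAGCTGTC

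Col16a1-207 is a short non-coding transcript of 3 exons whose first exon opens inside an intron of the coding transcript Col16a1-201, with 191 intronic bases (chr4:130097604-130097794, plus strand) that no other Col16a1 transcript holds. Lower case below is the start of the exon that both share, and capitals are the bases before it, intronic in Col16a1-207 and from the previous exon in Col16a1-201:
Col16a1-207: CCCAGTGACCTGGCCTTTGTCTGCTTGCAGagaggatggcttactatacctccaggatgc
Col16a1-201: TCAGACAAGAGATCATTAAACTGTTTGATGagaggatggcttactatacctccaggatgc

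Against WT, 9 of the 10 genes were called in Kpna6 ΔIBB/ΔIBB testes (edgeR's quasi-likelihood test, adjusted p below 0.05 over 18797 genes), where 36.6% of all tested genes were called. Downregulated were Dcdc2b, Hdac1, Zbtb8b, Ptpru, Tmem39b and Col16a1, and upregulated were Hpca, Yars and Zbtb8os (3 higher and 6 lower, where 17.7% and 18.9% of all tested genes were). Snrnp40 was not called. The CPM of all genes but Snrnp40 did not overlap with WT, nor did those of 50.0% of all genes (24.9% higher and 25.2% lower), and the TPM of all but Col16a1 did not, nor did those of 47.8% of all. The median absolute log2 fold change was 0.652 for the 10 genes and 0.215 for all genes tested. In Kpna6-/- testes, the contrast that chose them, all 10 passed the same threshold, where 1.60% of 18681 tested genes did (4 higher and 6 lower, against 0.889% and 0.712% of all). That outcome reflects the choice of the genes, so all values given for Kpna6-/- are a description and not a test. Neither the CPM nor the TPM of any of the 10 overlapped with WT there, as was the case for 20.0% of all genes in CPM (10.2% higher and 9.82% lower) and 17.8% in TPM. With limma on log2(TPM + 1), 0 higher and 1 lower passed, and without Kpna6-/- replicate 1, 2 higher and 4 lower did. Of the genes just below that threshold, Ptp4a2 had a log2 fold change of -0.16, Marcksl1 of 0.16, Rnf19b of 0.16 and Khdrbs1 of 0.18, while the smallest change among the chosen genes was that of Tmem39b (-0.41) and the largest that of Dcdc2b (-1.17). The WT libraries of the Kpna6 ΔIBB/ΔIBB comparison were the same that served to choose the genes, whereas the Kpna6 ΔIBB/ΔIBB libraries were not used for it.

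**Figure D1:**
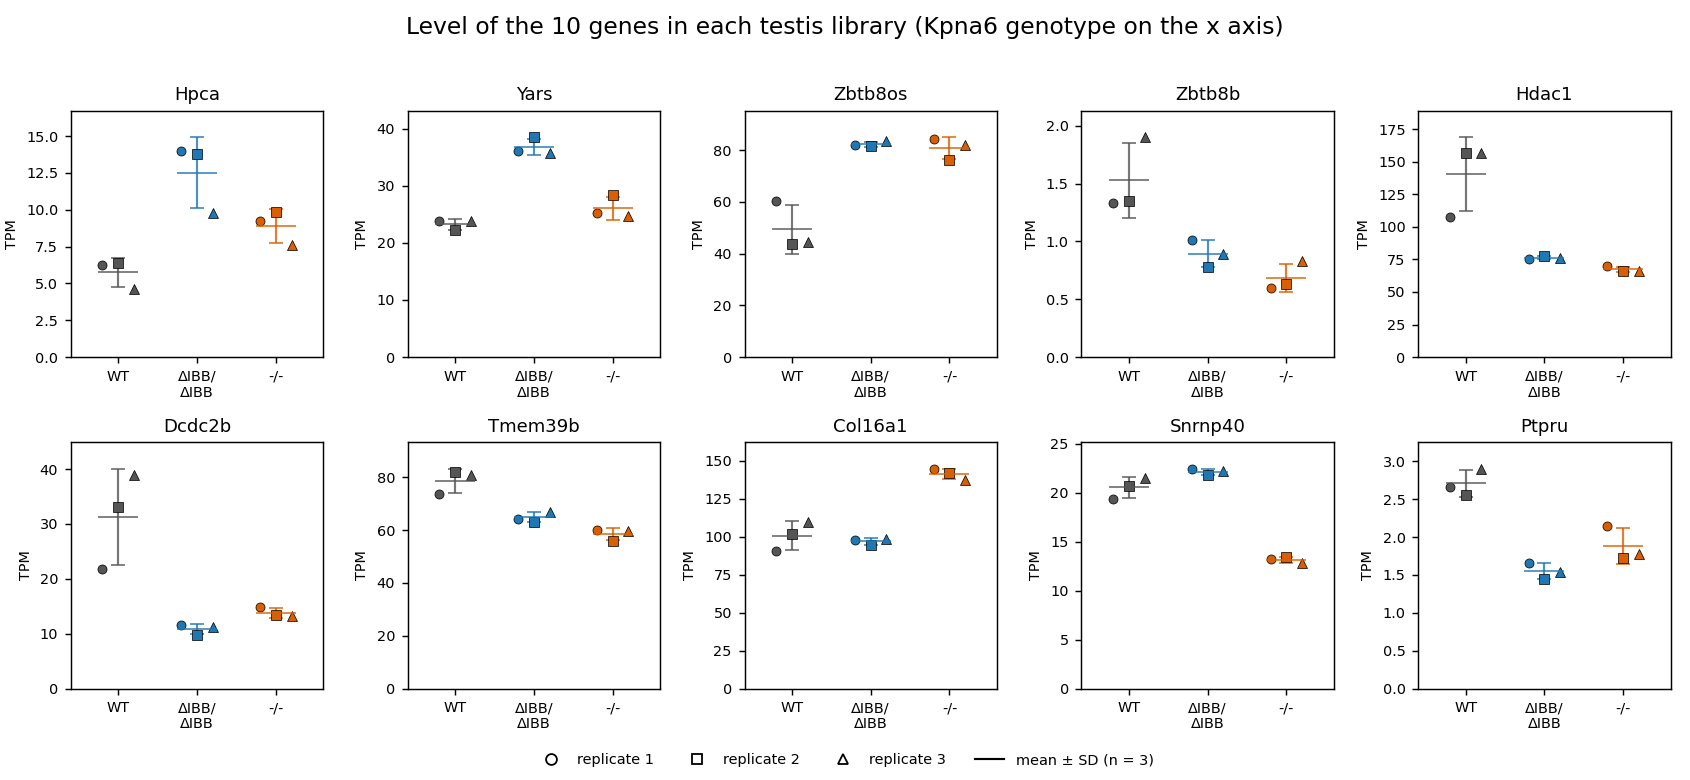
Level in TPM (y axis, from 0, a separate scale per gene) of the 10 genes by genotype (x axis), with 1 symbol per library (circle, square and triangle for replicates 1, 2 and 3) and a bar for the mean ± SD of 3 libraries. WT replicate 1 lies between the other WT libraries and the mutants for Zbtb8os, Hdac1, Dcdc2b and Tmem39b, and Col16a1 and Snrnp40 stand apart from WT and Kpna6 ΔIBB/ΔIBB in Kpna6-/-.

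In WT the levels per transcript length ran from Hdac1 (140.4 ± 28.3 TPM, SD, n = 3) through Col16a1 (100.4 ± 9.57), Tmem39b (78.7 ± 4.54), Zbtb8os (49.5 ± 9.48), Dcdc2b (31.3 ± 8.74), Yars (23.3 ± 0.958), Snrnp40 (20.5 ± 1.06) and Hpca (5.74 ± 0.983) to Ptpru (2.70 ± 0.176) and Zbtb8b (1.53 ± 0.323). Hdac1 and Col16a1 overlapped in their WT libraries, as did Dcdc2b and Yars. All other neighbours in this order were separate.

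Hpca (ENSMUSG00000028785, chr4:129111570-129122036, minus strand, 521.9 kb from Kpna6) encodes hippocalcin, a calcium sensor known from neurons. Its level was 6.24, 6.38 and 4.61 TPM for WT, 14.0, 13.8 and 9.75 for Kpna6 ΔIBB/ΔIBB and 9.24, 9.86 and 7.61 for Kpna6-/-. Every mutant library lay above every WT library. Hpca rose by 0.99 ± 0.16 (log2 fold change of counts ± SE, adjusted p = 0.000892) in Kpna6 ΔIBB/ΔIBB, and its log2 difference was 0.63 ± 0.14 in Kpna6-/-. The 3 coding transcripts that passed the filter were all higher in Kpna6 ΔIBB/ΔIBB than in WT (Hpca-202 at 3.26 to 6.91 TPM against 2.28 to 3.10). The 4 neuronal markers together stood at 1.85 to 3.01 TPM in WT and 1.62 to 3.67 in Kpna6 ΔIBB/ΔIBB, with overlap.

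Ptpru (ENSMUSG00000028909, chr4:131768457-131838288, minus strand) is the farthest of the 10 genes, 2095.7 kb beyond Kpna6, and encodes a receptor-type tyrosine phosphatase with an adhesive extracellular part. It stood at 2.66, 2.56 and 2.90 TPM for WT, at 1.66, 1.45 and 1.54 for Kpna6 ΔIBB/ΔIBB and at 2.15, 1.72 and 1.78 for Kpna6-/-. Both mutant genotypes were below WT without overlap. The log2 fold change was -0.76 ± 0.14 in Kpna6 ΔIBB/ΔIBB (adjusted p = 0.00161) and -0.71 ± 0.14 in Kpna6-/-.

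Yars (ENSMUSG00000028811, chr4:129189760-129219607, plus strand) charges tyrosine onto its tRNA. Its gene total was 23.9, 22.2 and 23.8 TPM for WT, 36.1, 38.5 and 35.8 for Kpna6 ΔIBB/ΔIBB and 25.2, 28.4 and 24.7 for Kpna6-/-. Kpna6 ΔIBB/ΔIBB was far above the other genotypes on this scale and Kpna6-/- only just above WT. In counts the Kpna6-/- libraries were closer to Kpna6 ΔIBB/ΔIBB: 43.8 to 46.3 CPM against 47.3 to 49.7, with 31.1 to 37.2 in WT. Yars rose by 0.54 ± 0.07 in Kpna6 ΔIBB/ΔIBB (adjusted p = 0.000163), and the log2 difference was 0.42 ± 0.07 in Kpna6-/-. The gene's TPM total also holds retained-intron and other non-coding transcripts, whose levels per length weigh more in it than in the counts. The coding transcript Yars-201 was at 13.6, 10.3 and 11.7 TPM for WT, 20.3, 20.3 and 19.1 for Kpna6 ΔIBB/ΔIBB and 18.6, 17.0 and 16.8 for Kpna6-/-. It was higher in every mutant library than in every WT library. S100pbp, on the other side of the bases shown above, was at 86.0 to 87.7 CPM for WT, 84.7 to 91.4 for Kpna6 ΔIBB/ΔIBB and 81.1 to 87.6 for Kpna6-/-. Its log2 fold changes were 0.03 ± 0.05 (adjusted p = 0.681) and -0.05 ± 0.05 (adjusted p = 0.681) by edgeR. On the TPM scale S100pbp was at 34.6 to 37.2 for WT and 34.6 to 38.1 for Kpna6 ΔIBB/ΔIBB. In Kpna6-/- it was at 31.1 to 33.8 TPM, below WT without overlap.

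Zbtb8os (ENSMUSG00000057572, chr4:129335695-129354547, plus strand) encodes archease, which keeps the tRNA ligase turning over. It was at 60.4, 43.7 and 44.4 TPM for WT, 81.9, 81.6 and 83.4 for Kpna6 ΔIBB/ΔIBB and 84.2, 76.3 and 82.2 for Kpna6-/-. The mutant genotypes overlapped each other and lay above all WT libraries, of which replicate 1 was the highest. Zbtb8os rose by 0.48 ± 0.09 in Kpna6 ΔIBB/ΔIBB (adjusted p = 0.00151), and the log2 difference was 0.57 ± 0.08 in Kpna6-/-. Most of the TPM sat in transcripts annotated as targets of nonsense-mediated decay. Zbtb8os-201 was at 28.0 to 42.5 TPM for WT, 52.8 to 54.2 for Kpna6 ΔIBB/ΔIBB and 52.5 to 58.6 for Kpna6-/-, and Zbtb8os-205 at 9.43 to 11.9, 21.8 to 23.8 and 18.6 to 22.7, while the coding Zbtb8os-204 overlapped in the 3 genotypes (3.92 to 4.82 TPM over all libraries). In WT counts Zbtb8os-204 held the largest share, 41.8% against 31.4% for Zbtb8os-201 and 25.8% for Zbtb8os-205. Zbtb8os-201 has 0 bases and 1 junction of its own, so its estimate rests largely on how reads were divided. A copy on chromosome 5, Gm8539 (98.8% identity over 501 bases), held between 2.07% and 6.74% of the summed counts of both genes, and the summed log2 fold changes were 0.43 ± 0.08 (adjusted p = 0.00208) in Kpna6 ΔIBB/ΔIBB and 0.54 ± 0.08 in Kpna6-/-. Rbbp4, a histone-binding protein gene that starts 325 bases away on the opposite strand, was at 196.2 to 211.6 CPM for WT, 195.2 to 201.8 for Kpna6 ΔIBB/ΔIBB and 194.9 to 200.1 for Kpna6-/- (log2 fold change -0.04 ± 0.04, adjusted p = 0.467, and -0.05 ± 0.04, adjusted p = 0.605).

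Snrnp40 (ENSMUSG00000074088, chr4:130360132-130390026, plus strand, 687.4 kb beyond Kpna6) encodes a WD-repeat protein of the U5 particle of the spliceosome. It was at 19.4, 20.7 and 21.5 TPM for WT, 22.4, 21.8 and 22.2 for Kpna6 ΔIBB/ΔIBB and 13.2, 13.4 and 12.8 for Kpna6-/-. Only the Kpna6-/- libraries were below WT, and those of Kpna6 ΔIBB/ΔIBB lay just above the highest WT library on the TPM scale. In counts Snrnp40 was not called in Kpna6 ΔIBB/ΔIBB (log2 fold change 0.00 ± 0.07, adjusted p = 0.967), whereas the log2 difference was -0.73 ± 0.07 in Kpna6-/-. Zcchc17, which starts 189 bases away on the opposite strand, was at 6.55 to 7.66 CPM for WT, 6.66 to 8.28 for Kpna6 ΔIBB/ΔIBB and 6.88 to 8.13 for Kpna6-/-, with full overlap.

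Hdac1 (ENSMUSG00000028800, chr4:129516104-129542713, minus strand, 101.3 kb from Kpna6) is a class I histone deacetylase that works in the Sin3, NuRD and CoREST corepressor complexes. It was at 107.7, 157.0 and 156.5 TPM for WT, 75.1, 77.7 and 76.2 for Kpna6 ΔIBB/ΔIBB and 69.8, 66.0 and 66.0 for Kpna6-/-. The mutants were tight and well below WT, and WT replicate 1 lay between them and the other WT libraries. Hdac1 fell by 1.03 on the log2 scale (SE 0.11, adjusted p = 7.72e-05) in Kpna6 ΔIBB/ΔIBB, and the log2 difference was -1.07 ± 0.11 in Kpna6-/-.

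The counts given to the copy Gm10093 moved in the other direction. They amounted to 10.2, 0.282 and 0.316 CPM in WT replicates 1 to 3, to 18.8, 19.2 and 22.1 in Kpna6 ΔIBB/ΔIBB and to 20.0, 21.2 and 21.9 in Kpna6-/-. WT replicates 2 and 3 were close to 0, the mutants were high and WT replicate 1 was again in between. As a share of the summed counts of both genes, Gm10093 took 6.34%, 0.128% and 0.148% in WT, 16.6% to 18.5% in Kpna6 ΔIBB/ΔIBB and 17.3% to 19.0% in Kpna6-/-. The sum of both genes was still lower in the mutants: 161.3, 220.8 and 214.3 CPM in WT against 112.9 to 119.8 in Kpna6 ΔIBB/ΔIBB (log2 fold change -0.78 ± 0.10, adjusted p = 0.000152) and 112.4 to 115.3 in Kpna6-/- (-0.80 ± 0.09). The difference had the same direction with and without the copy's counts and was smaller with them.

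**Figure D2:**
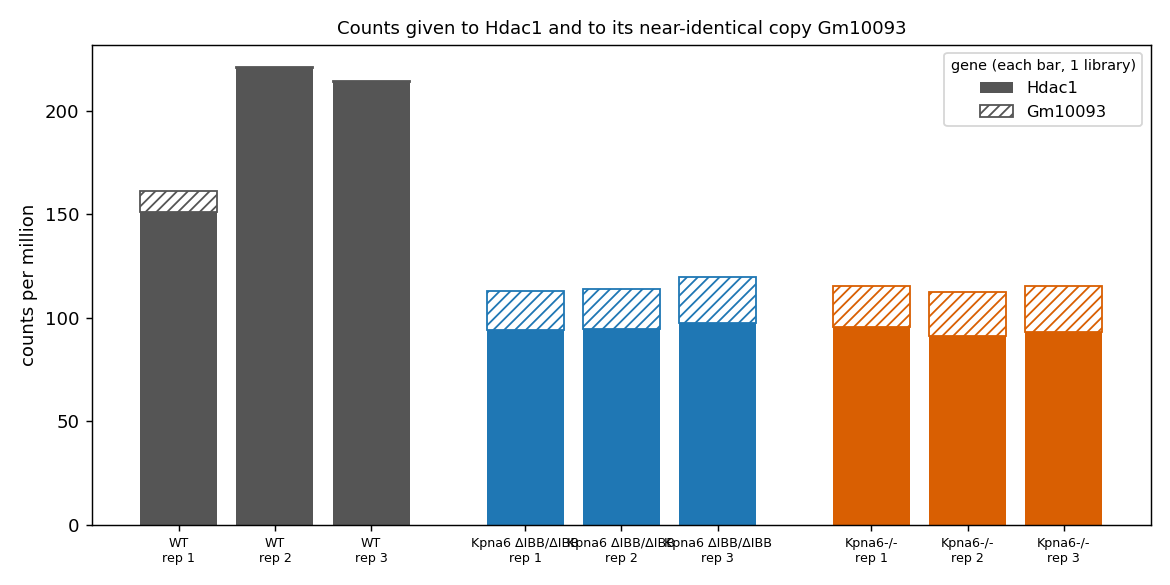
CPM (y axis, from 0) given to Hdac1 (filled) and to its near-identical copy Gm10093 (hatched, stacked on top) in each of the 9 libraries (x axis, by genotype and replicate). The hatched part is barely visible in WT replicates 2 and 3, takes 6.34% of the bar in WT replicate 1 and 16.6% to 19.0% in the 6 mutant libraries, and the whole bars are lower in the mutants.

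The retained-intron transcript Hdac1-204 reads on into 412 bases of intron (chr4:129528515-129528926, minus strand) that no other Hdac1 transcript holds. Estimated counts for it were 22.2, 42.5 and 40.8 for WT, 7.01, 7.02 and 1.98 for Kpna6 ΔIBB/ΔIBB and 5.95, 1.85 and 1.84 for Kpna6-/-. Its share of the Hdac1 TPM was 2.12% ± 0.345 (SD, n = 3) for WT, 0.662% ± 0.393 for Kpna6 ΔIBB/ΔIBB and 0.416% ± 0.304 for Kpna6-/-, so that it was lower by more than the gene as a whole, at few counts.

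Zbtb8b (ENSMUSG00000048485, chr4:129425765-129440853, minus strand), a BTB zinc finger gene, was the lowest of the 10 genes. It was at 1.33, 1.35 and 1.90 TPM for WT, 1.01, 0.779 and 0.894 for Kpna6 ΔIBB/ΔIBB and 0.599, 0.630 and 0.827 for Kpna6-/-. All mutant libraries were below all WT libraries. The log2 fold change was -0.88 ± 0.18 in Kpna6 ΔIBB/ΔIBB (adjusted p = 0.00303), a call that was lost on the log2(TPM + 1) scale with limma (-0.41, adjusted p = 0.064), and -1.13 ± 0.20 in Kpna6-/-.

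Dcdc2b (ENSMUSG00000078552, chr4:129608331-129614257, minus strand, 29.7 kb from Kpna6) belongs to the doublecortin family, whose best known members bind microtubules. It was at 21.8, 33.1 and 39.0 TPM for WT, 11.5, 9.78 and 11.3 for Kpna6 ΔIBB/ΔIBB and 14.9, 13.4 and 13.2 for Kpna6-/-. WT replicate 1 was the lowest WT library and still above all mutants, and Kpna6 ΔIBB/ΔIBB was below Kpna6-/- without overlap, a difference that was not tested. Dcdc2b fell by 1.64 on the log2 scale (SE 0.18, adjusted p = 7.64e-05) in Kpna6 ΔIBB/ΔIBB, the largest change of the 10 genes there, and the log2 difference was -1.17 ± 0.17 in Kpna6-/-. A retained-intron transcript, Dcdc2b-202, carried 59.4% ± 2.41 of the TPM for WT, 58.4% ± 4.35 for Kpna6 ΔIBB/ΔIBB and 60.7% ± 2.52 for Kpna6-/-, so that coding and non-coding forms were lower together.

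Tmem39b (ENSMUSG00000053730, chr4:129676355-129696838, minus strand) lies 3.59 kb from Kpna6 and encodes a membrane protein. It was at 73.5, 81.8 and 80.7 TPM for WT, 64.3, 63.2 and 67.0 for Kpna6 ΔIBB/ΔIBB and 60.0, 56.0 and 59.5 for Kpna6-/-. The 3 genotypes were fully separate in the order WT, Kpna6 ΔIBB/ΔIBB, Kpna6-/- on this scale. In counts the mutants overlapped (55.1 to 58.7 CPM and 53.8 to 57.8 CPM). The log2 fold change was -0.36 ± 0.06 in Kpna6 ΔIBB/ΔIBB (adjusted p = 0.00113) and -0.41 ± 0.06 in Kpna6-/-.

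Col16a1 (ENSMUSG00000040690, chr4:130047840-130099283, plus strand, 375.1 kb beyond Kpna6) encodes the α1 chain of collagen XVI, which associates with collagen fibrils. It was at 90.4, 101.5 and 109.4 TPM for WT, 98.0, 94.4 and 98.2 for Kpna6 ΔIBB/ΔIBB and 144.3, 141.9 and 137.6 for Kpna6-/-. Kpna6-/- was above the other genotypes, which overlapped. In counts Kpna6 ΔIBB/ΔIBB was lower, at 164.3 to 164.9 CPM against 192.4 to 210.8 in WT (log2 fold change -0.27 ± 0.04, adjusted p = 0.000893), but on the log2(TPM + 1) scale the difference was -0.05 with an adjusted p of 0.638 by limma. In Kpna6-/- the counts were 261.5 to 284.9 CPM and the log2 difference was 0.46 ± 0.05.

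By position along the chromosome, the values of both lines stood as follows. Hpca, Yars and Zbtb8os, the 3 genes farthest on the side of Kpna6 with lower coordinates, were higher in both lines. Zbtb8b, Hdac1, Dcdc2b and Tmem39b, all within 203.1 kb of Kpna6, were lower in both, as was the distant Ptpru. Other genes within that distance, named after their values were seen, went both ways in Kpna6 ΔIBB/ΔIBB. Marcksl1 (0.40 ± 0.05, adjusted p = 0.00021 by edgeR), Lck, Txlna and Khdrbs1 were called higher there. Tssk3 (-0.44 ± 0.04, adjusted p = 2.18e-05), Fam229a and Gm10571 were called lower. None of these genes was called in Kpna6-/-. Col16a1 was lower in Kpna6 ΔIBB/ΔIBB and higher in Kpna6-/-, and Snrnp40 was lower in Kpna6-/- and not called in Kpna6 ΔIBB/ΔIBB. Both comparisons used the same 3 WT libraries, so that like values in both lines are not independent of each other. The difference between the lines was not tested for any gene.

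**Figure D3:**
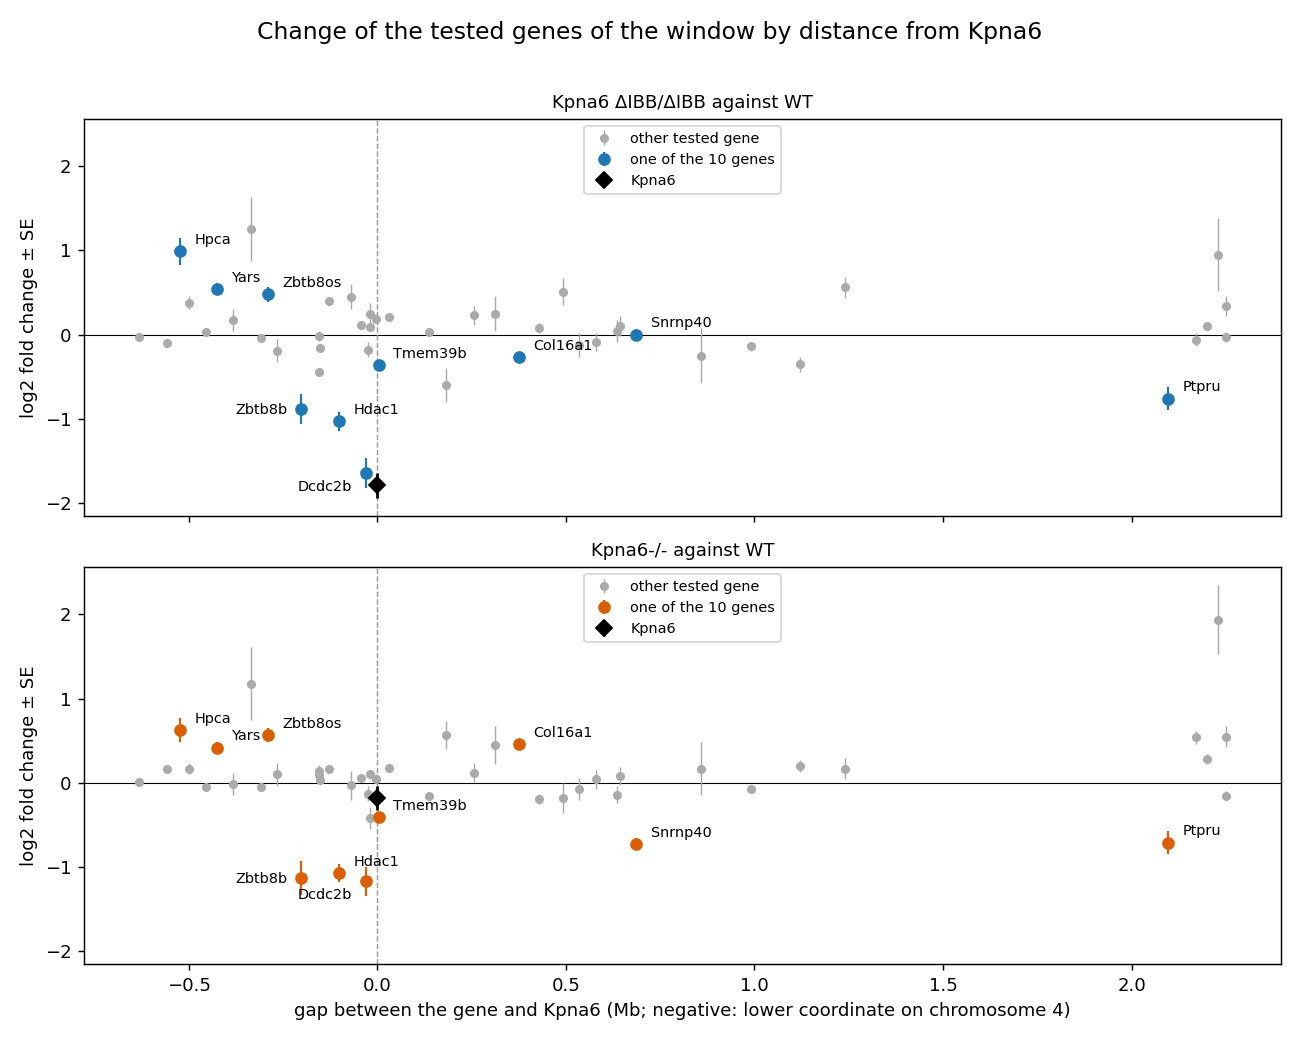
Log2 fold change of counts ± SE (y axis) against the gap between each gene and Kpna6 in Mb (x axis, negative for lower coordinates) for Kpna6 ΔIBB/ΔIBB (top) and Kpna6-/- (bottom), with the 10 genes in colour and named, Kpna6 as a diamond and the 38 other tested genes of the window in grey. Zbtb8b, Hdac1, Dcdc2b and Tmem39b are low and Hpca, Yars and Zbtb8os high in both panels, while Col16a1 and Snrnp40 change place between them.

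WT replicate 1 was the WT library nearest to the mutant mean for 8 of the 10 genes in both comparisons. Over all 19084 genes that passed the filter it was the nearest for 40.4% with Kpna6 ΔIBB/ΔIBB and for 34.7% with Kpna6-/-. Among the genes called in each comparison, WT replicate 1 was the nearest for 47.7% with Kpna6 ΔIBB/ΔIBB and for 51.2% with Kpna6-/-. Its distance from the mean of the other WT libraries, as a percent of the way to the Kpna6 ΔIBB/ΔIBB mean on the log2(CPM + 1) scale, was 56.6% for Zbtb8os, 44.3% for Hdac1, 44.0% for Tmem39b, 37.3% for Dcdc2b and 36.6% for Yars. It was 35.7% for Kpna6 itself and 77.4% for Gm10093. These genes move together in this library in the direction of both mutants. The library's label as WT was kept here without a test of its genotype, which bears on every fold change against WT. For Hpca, Zbtb8b, Col16a1 and Ptpru the same percent was 20.1% to 24.1% for WT replicate 1. For WT replicate 2 it was 12.1% to 25.2% in these genes. Without WT replicate 1 the same 9 genes remained called in Kpna6 ΔIBB/ΔIBB (34.0% of 19081 genes were), with log2 fold changes of 1.07 for Hpca, 0.62 for Yars, 0.60 for Zbtb8os, -0.95 for Zbtb8b, -1.18 for Hdac1, -1.83 for Dcdc2b, -0.42 for Tmem39b, -0.30 for Col16a1 and -0.82 for Ptpru. In Kpna6-/-, where 2.74% of 18892 genes were called without it, the values ran from -1.36 for Dcdc2b to 0.72 for Hpca.

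Over the 9 libraries Hdac1 and Tmem39b had a Pearson r of 0.98 and Hdac1 and Zbtb8os of -0.98 (log2(CPM + 1)), while the r of Col16a1 with the 7 genes from Hpca to Tmem39b lay between -0.29 and 0.27 and that of Col16a1 with Snrnp40 was -0.906. These values describe 9 libraries that share genotype differences. Of the 18797 genes tested in Kpna6 ΔIBB/ΔIBB, 17655 lie outside chromosome 4, so that a most similar gene on another chromosome is the usual case. The gene most like each of the 10, outside the list, lay on another chromosome in every case: Dmrtc1a for Hpca (r = 0.983), Cst9 for Yars (0.992), Gm10093 for Zbtb8os (0.967), Myo15b for Zbtb8b (0.977), Prss47 for Hdac1 (0.969), Wdfy3 for Dcdc2b (0.989), Ano5 for Tmem39b (0.969), Zscan12 for Col16a1 (0.992), Lrch1 for Snrnp40 (0.981) and Bmp2k for Ptpru (0.969), each over 9 libraries and chosen as the highest of all genes.

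Below the gene level, 33 of the 66 transcripts of the 10 genes passed a filter of 20 estimated counts on average in a genotype, and 32 of these belong to genes with more than 1 such transcript. In Kpna6-/- the share of the gene's TPM did not overlap with WT for 16 of the 32, where 11.5% of 32760 such transcripts of all genes did not. In Kpna6 ΔIBB/ΔIBB it was 8 of 32, where 19.9% of all did not. Since the genes were chosen on Kpna6-/-, these counts are a description.

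The makeup of Col16a1 was another in Kpna6-/-. The non-coding Col16a1-211 was at 19.6, 29.0 and 35.7 TPM for WT, 25.9, 29.9 and 27.1 for Kpna6 ΔIBB/ΔIBB and 0.742, 1.41 and 1.03 for Kpna6-/-. It was close to absent in every Kpna6-/- library, at 0.751% ± 0.239 of the gene's TPM (SD, n = 3) against 27.6% ± 5.53 in WT. All its 717 bases and all its 12 junctions are shared with other Col16a1 transcripts, so its estimate rests on how reads were divided among them. Col16a1-207 went the other way: 8.23, 8.39 and 8.44 TPM for WT, 12.4, 4.41 and 6.78 for Kpna6 ΔIBB/ΔIBB and 54.5, 54.0 and 45.9 for Kpna6-/-, or 106.2 to 119.7 estimated counts in WT against 584.3 to 777.5 in Kpna6-/-. Its share was 8.36% ± 0.702 in WT and 36.4% ± 2.62 in Kpna6-/-, and it has 191 bases and no junction of its own.

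The long transcripts of Col16a1 shifted as well. Col16a1-209, annotated as a target of nonsense-mediated decay, was at 9.87 to 11.5 TPM for WT, 10.7 to 12.0 for Kpna6 ΔIBB/ΔIBB and 4.91 to 6.52 for Kpna6-/-. The coding Col16a1-201 was at 4.98 to 6.01, 3.79 to 3.93 and 10.7 to 11.3, and the coding Col16a1-210 at 35.4 to 39.3, 29.8 to 33.0 and 52.0 to 57.7. Both coding transcripts were highest in Kpna6-/- and lowest in Kpna6 ΔIBB/ΔIBB, with no overlap between any of the 3 genotypes. Like Col16a1-211, Col16a1-210 has 0 bases and 0 junctions of its own, so its estimate too rests on how reads were divided.

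Of Snrnp40, the coding Snrnp40-201 was at 15.3, 16.2 and 17.4 TPM for WT, 18.4, 17.6 and 17.9 for Kpna6 ΔIBB/ΔIBB and 11.3, 11.6 and 11.1 for Kpna6-/-. The non-coding Snrnp40-202 was at 3.01, 3.34 and 3.50, at 3.50, 3.71 and 3.36, and at 0.442, 0.316 and 0.230. Both were lower in every Kpna6-/- library than in every other library, and Snrnp40-202 was lower by more: its share of the TPM was 16.0% ± 0.417 for WT, 15.9% ± 0.966 for Kpna6 ΔIBB/ΔIBB and 2.50% ± 0.780 for Kpna6-/-. Unlike Col16a1-211, it has 1206 bases and 2 junctions of its own, the last of the shared exons being followed by the sequence shown above.

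**Figure D4:**
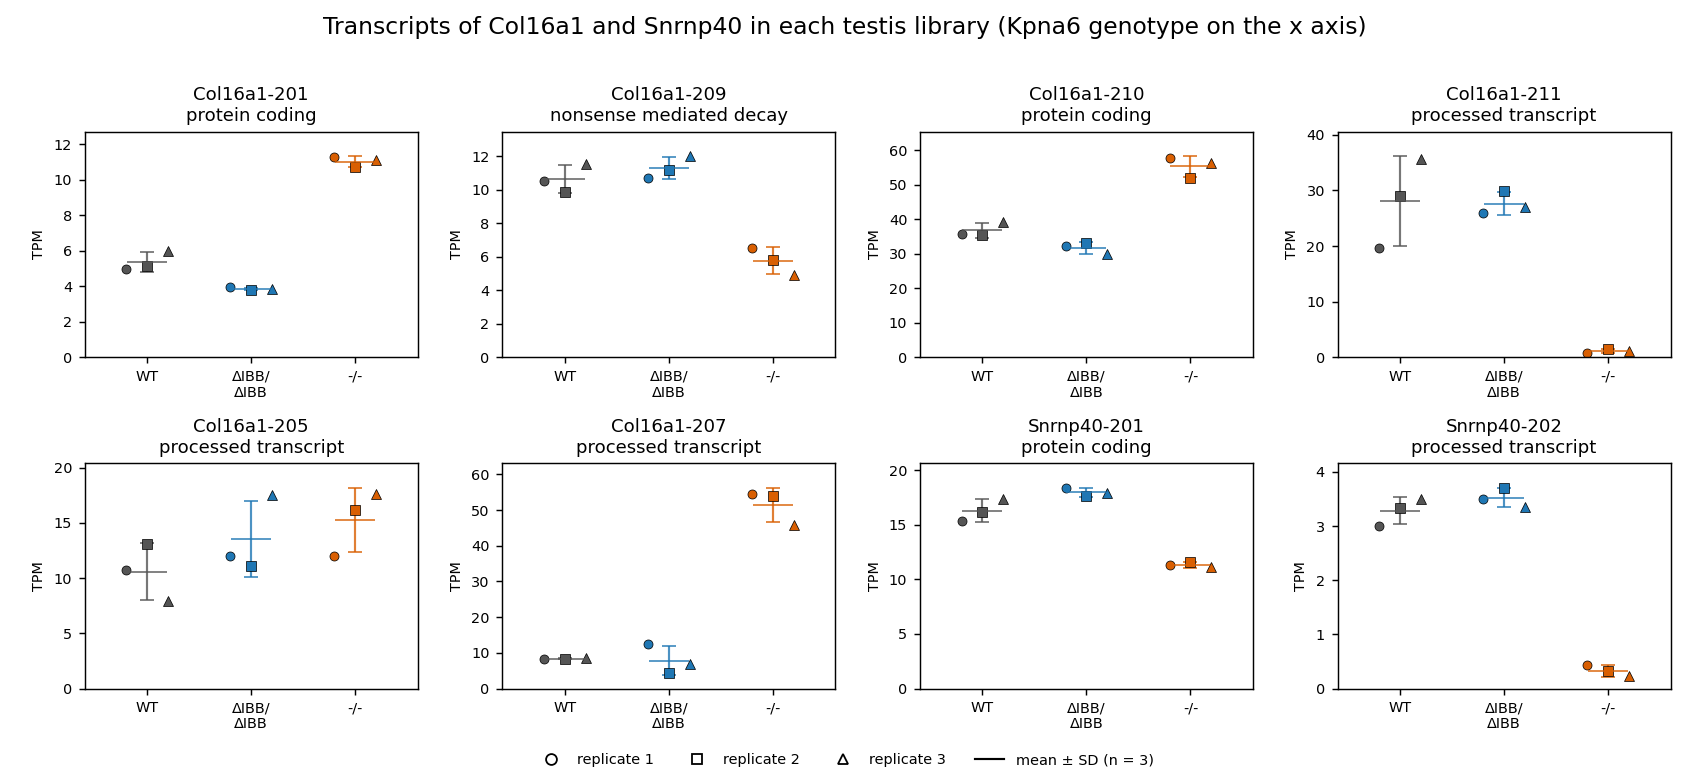
Level in TPM (y axis, from 0, a separate scale per transcript) of 6 Col16a1 and 2 Snrnp40 transcripts by genotype (x axis), with 1 symbol per library (circle, square and triangle for replicates 1, 2 and 3) and a bar for the mean ± SD of 3 libraries. In Kpna6-/- Col16a1-211 lies between 0.742 and 1.41 TPM and Col16a1-207 between 45.9 and 54.5, and Snrnp40-202 lies between 0.230 and 0.442 TPM and Snrnp40-201 between 11.1 and 11.6.

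Of the 89 annotated genes in the window of 3 Mb that holds the 10, 38 others besides Kpna6 and the 10 were tested. Of these, 13 were called in Kpna6 ΔIBB/ΔIBB (34.2%), 9 higher and 4 lower, close to the 36.6% of all genes. Scaled by library size only, 16 were higher and 2 lower. In Kpna6-/- 4 were called, all higher, or 10.5% against 1.60% of all genes. All 4 lie 2170.7 to 2249.0 kb beyond Kpna6: Mecr, an enzyme of mitochondrial fatty acid synthesis (log2 fold change 0.54 ± 0.08, adjusted p = 0.00738), the splicing factor gene Srsf4 (0.28 ± 0.06, adjusted p = 0.0371), Gm12978 (1.94 ± 0.41, adjusted p = 0.0371, on 4.08 to 11.2 estimated counts per WT library) and Tmem200b (0.55 ± 0.12, adjusted p = 0.043). Ptpru, which was lower in Kpna6-/-, is the chosen gene next to them. Leaving out 1 library cut the 4 to 1 (WT replicate 1 or 2), 2 (WT replicate 3, Kpna6-/- replicate 2 or 3) or 0 (Kpna6-/- replicate 1, with 15 at an unadjusted p below 0.05), and the 13 in Kpna6 ΔIBB/ΔIBB to 8 without its replicate 1 and 7 without its replicate 2. The Kpna6-/- counts come from the contrast that chose the 10 genes and are a description. With the 10 genes counted in, 14 of 48 tested genes of the window (29.2%) were called in Kpna6-/-, against 0% to 4.35% in the 20 other stretches of 3 Mb on chromosome 4 with at least 20 tested genes. The 10 were picked for their change in this contrast and are among the 14. The 29.2% therefore reflects that choice and does not measure the window against the other stretches. In Kpna6 ΔIBB/ΔIBB the window's 47.9% lay within the 18.5% to 54.8% of those stretches.

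Other genes close to Kpna6 had smaller differences than Dcdc2b. Txlna, 2.92 kb away, was at 52.3 to 53.2 CPM in WT, 57.5 to 62.4 in Kpna6 ΔIBB/ΔIBB (log2 fold change 0.19 ± 0.05, adjusted p = 0.0114) and 54.5 to 55.2 in Kpna6-/- (0.05 ± 0.05, adjusted p = 0.644). Khdrbs1, an RNA-binding protein gene 30.4 kb beyond, rose by 0.21 ± 0.04 (log2) in Kpna6 ΔIBB/ΔIBB (adjusted p = 0.00405), and its value was 0.18 ± 0.04 in Kpna6-/- (adjusted p = 0.0755). Ccdc28b, 20.0 kb away and named after its values were seen, was at 7.02 to 9.55 CPM in WT, at 8.94 to 9.75 in Kpna6 ΔIBB/ΔIBB (0.24 ± 0.13, adjusted p = 0.18) and, below WT without overlap, at 5.51 to 6.10 in Kpna6-/- (-0.42 ± 0.13, adjusted p = 0.153). Iqcc, 24.9 kb away and named likewise, had -0.18 ± 0.09 (adjusted p = 0.133) and -0.13 ± 0.09 (adjusted p = 0.553), with overlap in CPM. On the TPM scale Iqcc went the other way, without overlap with WT in either line. It was at 29.1 to 33.2 TPM in WT, 42.3 to 43.6 in Kpna6 ΔIBB/ΔIBB and 39.8 to 44.4 in Kpna6-/-. The other genes of the window with the largest called changes in Kpna6 ΔIBB/ΔIBB were Sync (1.25 ± 0.38, adjusted p = 0.0254, on 5.03 to 9.06 estimated counts per WT library), Gm10571 (-0.60 ± 0.20, adjusted p = 0.0343), the leukocyte gene Laptm5 (0.56 ± 0.13, adjusted p = 0.00598), Tinagl1 (0.51 ± 0.16, adjusted p = 0.0313) and the T cell kinase gene Lck (0.45 ± 0.15, adjusted p = 0.0357). The 4 macrophage markers summed to 24.7 to 28.1 TPM in Kpna6 ΔIBB/ΔIBB and 15.8 to 21.2 in WT, and their part in Laptm5 was not tested. Exons of 4 of the 10 genes overlap an exon of a gene on the other strand, by 57 bases for Hpca with Tmem54, 30 for Yars with C77080, 264 for Zbtb8os with Zbtb8a and 18 for Dcdc2b with Tmem234, and whether the counting used strand is not stated.

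Relatives and partners of the 10 genes were looked at as 11 lists, of which Rbbp4 and Zbtb8a lie in the window and were also counted there. Of 112 tested, 38 were called in Kpna6 ΔIBB/ΔIBB, 23 higher and 15 lower, or 33.9% against 36.6% of all genes. Scaled by library size only, 47 were higher and 9 lower, and with limma on TPM 33 and 5, on scales where the median of all genes was 0.107 and 0.108 (log2). In Kpna6-/- 2 of 111 were called (1.80%, against 1.60%): the collagen gene Col27a1 (0.29 ± 0.06, adjusted p = 0.0293), on the same chromosome as Col16a1, and Ptprm, the relative of Ptpru (-0.38 ± 0.09, adjusted p = 0.0497). Without Kpna6 ΔIBB/ΔIBB replicate 2 the 38 became 25, and the 2 became 0 without WT replicate 2 or any 1 Kpna6-/- library (9 to 16 at an unadjusted p below 0.05) and 1 without WT replicate 3. Of 25 genes of the class I deacetylase complexes, 7 were called higher and 1 lower in Kpna6 ΔIBB/ΔIBB, among them Sin3b (0.37 ± 0.04, adjusted p = 6.55e-05) and Rbbp7 (0.38 ± 0.06, adjusted p = 0.000431). Sin3b scaffolds one of these complexes and Rbbp7 binds histones in several.

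For the other families the values in Kpna6 ΔIBB/ΔIBB were as follows. As a background, 17.7% of all tested genes were called higher there and 18.9% lower, and no family was tested as a set. Of 21 genes of other cytosolic aminoacyl-tRNA synthetases and their auxiliary proteins (Aimp1, Aimp2 and Eef1e1), 5 were called higher and 2 lower, with Sars (0.33 ± 0.06, adjusted p = 0.00168) and Nars (0.28 ± 0.06, adjusted p = 0.0031) as the clearest. Of 10 tested calcium sensors 1 was higher and 2 were lower, and Kcnip2 (-0.52 ± 0.09, adjusted p = 0.000995) and Guca1a (-0.81 ± 0.19, adjusted p = 0.00618) were the lower ones. Of 8 doublecortin genes 4 were lower, including Dclk1 (-0.49 ± 0.08, adjusted p = 0.000687) and Dcdc2c (-0.49 ± 0.09, adjusted p = 0.00161). Of 8 related collagens 4 were lower, including Col22a1 (-0.49 ± 0.06, adjusted p = 0.000124), and Col27a1 was higher (0.39 ± 0.08, adjusted p = 0.00352). Of 14 genes of the U5 particle 3 were higher, including Snrpb (0.25 ± 0.05, adjusted p = 0.00369) and Cd2bp2 (0.23 ± 0.05, adjusted p = 0.00515). Of 12 BTB zinc finger genes 5 were higher, including Zbtb7a (0.53 ± 0.06, adjusted p = 0.000119) and Zbtb7b (0.52 ± 0.12, adjusted p = 0.00651), and 1 was lower. The 5 tested genes of the tRNA ligase complex had a median log2 fold change of -0.0452, with 0 called by edgeR and DESeq2, 2 by limma and 2 at an unadjusted p below 0.05. The 3 relatives of Ptpru had a median of -0.298 and the paralogue of Tmem39b a value of 0.11, with 0 called by edgeR, DESeq2 or limma and 0 at an unadjusted p below 0.05. Among the 5 paralogues of Kpna6, Kpna1 rose by 0.42 ± 0.04 (adjusted p = 5.66e-05) and Kpna4 fell by 0.11 (SE 0.04, adjusted p = 0.0499) in Kpna6 ΔIBB/ΔIBB.

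Promoter sequences of 300 bases (250 before the start and 50 after, RefSeq GRCm38.p6) were held for 8 of the 10 genes, in 10 promoters, and not for Hdac1 or Snrnp40. Searched on both strands, the letters CCAAT occurred in 4 of the 10 promoters, those of Col16a1, Dcdc2b, Yars and Zbtb8b, and in 37.4% of all 32851 promoters. GGGCGG occurred in 5 promoters of 4 genes (Col16a1, Hpca, Yars and Zbtb8os), and in 35.7% of all. TATAAA occurred in that of Zbtb8os (13.6% of all) and TGACGTCA in that of Ptpru (1.79% of all). CCAAT occurred in genes that were higher and in genes that were lower in the mutants, and matches are a description of the sequence only.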

How the data were processed

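Poly(A) RNA of whole mouse testes was made into 9 libraries (3 WT, 3 Kpna6 ΔIBB/ΔIBB, 3 Kpna6-/-) with the NEBNext Ultra kit and sequenced. Per the labels, the authors pseudo-aligned the reads with kallisto 0.45 to mm10; the transcript set and the use of strand are not given in the sources used here. The deposited tables hold estimated counts (not normalized, not whole) and TPM (scaled for transcript length and depth by the authors) for 96626 transcripts, of which 95301 matched GENCODE M21 and were summed to 32035 genes. Per library, 24859751 to 31484692 estimated counts lay on genes.

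Gene sums were rounded and tested with edgeR 4.0.16 (TMM, filterByExpr, glmQLFit and glmQLFTest, R 4.3.3), with the WT and 1 mutant genotype per fit, Benjamini-Hochberg adjusted over all tested genes and called below 0.05. SE is that of the log2 fold change, and CPM uses TMM library sizes. Transcript shares had no test. Near-identical sequences were found with blastn 2.17.0 (95% identity). Alternatives used DESeq2 1.42.0, limma 3.58.1 on log2(TPM + 1), other scalings, no filter, all 9 libraries in 1 fit, a replicate block and each library left out.

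The 10 genes, the relatives, the marker lists and the rule for named genes were chosen with earlier results of these data known. Named besides the 10 genes and Kpna6 were the 5 window genes with the largest called change per line, the nearest tested gene on each side, at most 2 called genes per list and the gene most correlated with each of the 10. Partners that start or overlap next to the 10 genes, copies, genes just below the threshold and the transcripts described were named after their values were seen.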

Additional observations from a re-analysis of the deposited data

Results flagged for a closer look

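In 5 of the named genes, on the CPM scale, every Kpna6 ΔIBB/ΔIBB library lay on one side of all WT libraries and every Kpna6-/- library on the other. Over all genes the CPM did not overlap with WT for 50.0% in Kpna6 ΔIBB/ΔIBB and 20.0% in Kpna6-/-. The share of all genes on opposite sides was not counted, so the 5 genes are a description only. On the TPM scale Col16a1 overlapped with WT in Kpna6 ΔIBB/ΔIBB, and Mecr and Kpna1 did in Kpna6-/-. The difference between the lines was not tested for any of them. For Col16a1 the log2 fold changes were -0.27 (Kpna6 ΔIBB/ΔIBB) and 0.46 (Kpna6-/-). Gm10571, 182.3 kb beyond Kpna6, had -0.60 and 0.57, with 2.19 to 3.24 CPM for WT, 1.53 to 1.86 for Kpna6 ΔIBB/ΔIBB and 3.44 to 4.27 for Kpna6-/-. Tinagl1, which encodes a basement membrane protein, had 0.51 and -0.18. Mecr had -0.06 and 0.54, with 11.6 to 12.3 CPM for WT, 11.0 to 11.6 for Kpna6 ΔIBB/ΔIBB and 15.6 to 18.7 for Kpna6-/-, the first pair of ranges meeting only through rounding. Kpna1, a paralogue of Kpna6 on chromosome 16, had 0.42 and -0.10. Gm10571, Tinagl1 and Kpna1 passed edgeR's test in Kpna6 ΔIBB/ΔIBB alone (the other line's adjusted p was 0.137 for Gm10571, 0.706 for Tinagl1 and 0.319 for Kpna1), and Mecr in Kpna6-/- alone (0.587 in the other line). With 3 libraries per genotype gaps between single libraries were not tested.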

How the results depend on the processing

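Snrnp40 in Kpna6 ΔIBB/ΔIBB, which was not called, had log2 fold changes from -0.04 to 0.11 over the alternatives. No other log2 fold change of the 10 genes or Kpna6 changed sign under any of the 18 alternatives where it was computed. Counts within 1.5 times the reported one are not repeated here. On the log2(TPM + 1) scale with limma, Zbtb8b (-0.41, adjusted p = 0.064) and Col16a1 (-0.05, adjusted p = 0.638) were not called in Kpna6 ΔIBB/ΔIBB, so that 7 of the 10 genes were called there against 9 in every other setting. In Kpna6-/-, 0 of the 10 passed as higher and 1 as lower with limma, against 4 and 6. The cause was not tested.

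The 4 other window genes called in Kpna6-/- became 7 with DESeq2, 2 with the replicate block, 0 with limma (14 at an unadjusted p below 0.05) and 0 to 2 with 1 library left out. The 2 relatives called in Kpna6-/- became 1 with scaling by library size only, 4 without a filter, 1 with the replicate block, 0 with all 9 libraries in 1 fit (18 at an unadjusted p below 0.05), 0 with limma (7) and 0 to 3 with 1 library left out. In Kpna6 ΔIBB/ΔIBB, leaving out 1 library gave 7 to 11 window genes against 13, and 25 to 37 relatives against 38.

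Same-numbered libraries did not deviate together (r of -0.056 to 0.078), so the numbers do not pair them, and in Kpna6 ΔIBB/ΔIBB the replicate block again called 9 of the 10 genes, 13 window genes (7 higher and 6 lower) and 38 relatives (24 and 14). Over all genes 299 were called in Kpna6-/-, 624 without a filter, 26 with limma, and with 1 library left out 518 (WT replicate 1), 135 (WT replicate 2), 145 (WT replicate 3), 92, 113 and 180 (Kpna6-/- replicates 1 to 3). In Kpna6 ΔIBB/ΔIBB 48.4% of the called genes were higher, but 70.0% with scaling by library size only and 71.0% with limma, where the median log2 fold change of all genes was 0.107 and 0.108 in place of 0.00898. In Kpna6-/- the share higher was 55.5%, and 38.5% with limma. Depth limits Zbtb8b (105.4 to 131.0 estimated counts per WT library) and, far more, Gm12978 (4.08 to 11.2) and Sync (5.03 to 9.06).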
